A study of Mus musculus with 8 samples.

Results

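Surface and secreted markers of skin adipocyte progenitors and fascia fibroblasts, Cd34, Ly6a, Cd9, Cd24a, Dpp4, Pi16, Clec3b, Dpt and Thy1, were followed, 9 genes in all, in ribosome-bound RNA from mouse skin. They were found by symbol and make up 9 of the 53700 gene rows of the count table, each matching 1 row. All mice carried AdipoqCreER;R26-NuTRAP and had received tamoxifen. AdipoqCreER is a recombinase that tamoxifen activates in cells using the adiponectin promoter, and NuTRAP is a reporter that puts GFP on ribosomes wherever that recombinase has acted, so the tag marks cells that used this promoter when tamoxifen was given. RNA bound to GFP-tagged ribosomes was pulled down from uninjured skin (n = 3) and from skin 3 days (n = 2) and 7 days (n = 3) after wounding, the titles' PW3d and PW7d being read as days after wounding. Mice were wounded in the resting phase of the hair cycle with a 5 mm punch, which made 4 full-thickness dermal wounds. The protocol, the same text for all samples, gives an age of 7 to 9 weeks at wounding and no separate age for uninjured mice. Input RNA was not analysed here, and the titles do not say whether replicates came from separate mice, so p-values measure the spread between these libraries.

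Fat of the skin and the fascia below it holds stromal progenitors that can become adipocytes. They are recognised by combinations of surface proteins, since no single protein is particular to them. Cd34 is a sialomucin, Ly6a (Sca-1) and Thy1 (CD90) are small proteins held by a lipid anchor, Cd24a is a short mucin-like protein on the same kind of anchor, and Cd9 is a tetraspanin that organises membrane partners. In mouse fat, Dpp4, a membrane peptidase, and Pi16, a secreted protein of the CAP family, mark interstitial progenitors that lie early in the lineage. Clec3b (tetranectin) binds plasminogen, and Dpt (dermatopontin) is a matrix protein that binds the proteoglycan decorin. Several of the 9 are made by other cells as well, Cd34 and Ly6a by endothelium, Thy1 by T cells, and Cd9 and Cd24a by epithelia.

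The libraries held 5308959 to 17751689 counts. Levels are CPM, that is counts scaled to a common library size with TMM factors, which correct for differences in composition between libraries. The 14 adipocyte markers summed to 83302 to 103786 CPM in uninjured libraries, 76854 to 104186 CPM at day 3 and 50205 to 106952 CPM at day 7, above every other list examined, and all 14 had counts in every group. RNA of genes typical of other cell types was present too. The sum of 18 pan-fibroblast genes, none of them among the 9 markers, was 7335 to 14145 CPM at day 7, against 2033 to 3003 CPM in uninjured libraries. On the first principal component, day 7 replicate 3 (8.43) lay beside the day 3 libraries (1.90 and 4.96), away from day 7 replicates 1 and 2 (113.57 and 82.46). Its adipocyte marker sum, 106952 CPM, was above that of every uninjured library. Day 3 replicate 1 stood apart on the second principal component (-97.72, the others between -11.32 and 30.33) and held 1738 CPM of 11 luminal epithelium markers, against 51.5 CPM in day 3 replicate 2. In bulk RNA of this kind, more cells of a type and more RNA per cell cannot be told apart. Without input RNA, RNA carried over from untagged cells and a change within tagged cells cannot be told apart either. The columns of each group also begin with a number of their own that the labels leave unexplained, so that what it marks cannot be told apart from the group.

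At day 7 against uninjured skin, 5 of the 9 markers rose and 4 did not pass. Clec3b and Cd9 rose most, 6.58-fold and 6.53-fold, followed by Cd24a, Thy1 and Cd34 at 4.25-fold, 4.12-fold and 3.21-fold. Ly6a, Dpp4, Pi16 and Dpt did not pass the test in any comparison. A gene is said to have risen or fallen where edgeR's quasi-likelihood test gave a Benjamini-Hochberg adjusted p under 0.05 over all 18656 genes tested, and all 9 markers passed the filter on low counts. Among all tested genes, 5.90% rose and 1.77% fell at day 7, against 5 and 0 of the 9 markers. The markers' median log2 fold change was 1.68, and that of all tested genes was 0.04. At an unadjusted p under 0.05, 5 markers were higher and 0 lower, against 17.2% and 9.50% of all tested genes, and DESeq2 also called 0 lower. In 5 of the 9 every day 7 library lay above every uninjured library, as did 16.7% of all tested genes. Of the 14 adipocyte markers 0 rose and 1 fell, with a median log2 fold change of -0.62. At an unadjusted p under 0.05, 6 of them were lower and 0 higher, and DESeq2 called 2 lower. Markers of several other cell types rose in the same comparison, and those of skeletal muscle fell. Of 12 skeletal muscle markers 0 rose and 10 fell, with a median log2 fold change of -2.46. The skeletal muscle sum was 886 to 1701 CPM at day 7, against 4970 to 10400 CPM in uninjured libraries. Of 12 macrophage and monocyte markers 6 rose and 0 fell, with a median log2 fold change of 1.80, and DESeq2 called 10 higher. Their sum was 544 to 1238 CPM at day 7, against 138 to 302 CPM in uninjured libraries. Of 11 pericyte and vascular smooth muscle markers 4 rose and 1 fell, and their sums overlapped, at 381 to 689 CPM at day 7 and 479 to 849 CPM in uninjured libraries. Some macrophages and pericytes carry Cd9 or Thy1, and their part in the rise of the markers was not tested.

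**Figure D1:**
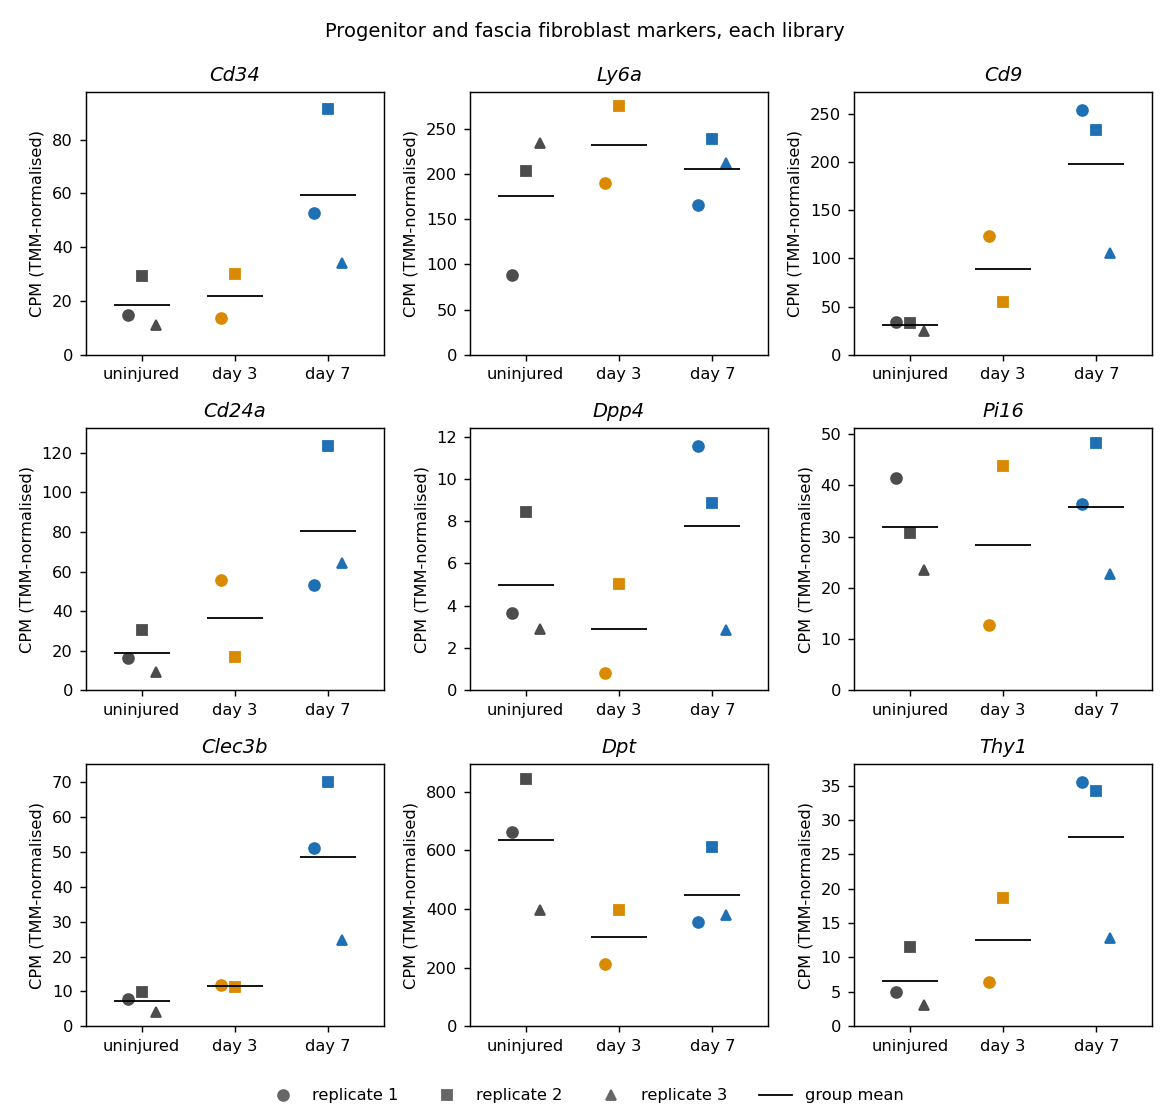
TMM-normalised CPM (vertical axis, linear from 0) of the 9 markers in each library, by group (horizontal axis), with replicates as symbols and the group mean as a line. Cd9, Clec3b, Cd24a, Thy1 and Cd34 lie higher in all 3 day 7 libraries than in the 3 uninjured ones, whereas the groups overlap for Ly6a, Dpp4, Pi16 and Dpt.

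Promoter windows, 250 bases before to 50 after the start of the gene, were given by RefSeq (build GRCm38.p6) for 5 of the 9 markers, namely Cd34, Cd9, Dpp4, Pi16 and Dpt. Those of Cd9 and Cd34, which rose at day 7, and of Dpt, which had the lowest fold change at day 7, are shown so that genes with different responses can be compared. The windows are chr6:125494711-125495010 on the minus strand for Cd9, chr1:194938571-194938870 on the plus strand for Cd34 and chr1:164796413-164796712 on the plus strand for Dpt. Capitals mark matches, on either strand, to any of 5 words searched, namely TATAAA of the TATA box, GGGCGG of the GC box, CCAAT of the CCAAT box, TGANTCA of AP-1 sites and GGAATG of TEAD sites. No matches overlapped.
Cd9: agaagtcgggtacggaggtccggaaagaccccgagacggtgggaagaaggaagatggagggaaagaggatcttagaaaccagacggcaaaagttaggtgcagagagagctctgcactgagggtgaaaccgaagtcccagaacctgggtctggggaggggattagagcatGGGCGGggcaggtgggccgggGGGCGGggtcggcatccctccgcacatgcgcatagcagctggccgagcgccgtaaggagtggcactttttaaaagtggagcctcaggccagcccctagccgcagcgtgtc
Cd34: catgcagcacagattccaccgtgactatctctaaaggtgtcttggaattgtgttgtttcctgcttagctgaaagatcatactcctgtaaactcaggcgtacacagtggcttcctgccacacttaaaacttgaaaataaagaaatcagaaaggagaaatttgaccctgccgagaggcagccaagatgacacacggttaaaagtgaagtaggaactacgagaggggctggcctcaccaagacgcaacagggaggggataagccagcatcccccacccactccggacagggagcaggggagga
Dpt: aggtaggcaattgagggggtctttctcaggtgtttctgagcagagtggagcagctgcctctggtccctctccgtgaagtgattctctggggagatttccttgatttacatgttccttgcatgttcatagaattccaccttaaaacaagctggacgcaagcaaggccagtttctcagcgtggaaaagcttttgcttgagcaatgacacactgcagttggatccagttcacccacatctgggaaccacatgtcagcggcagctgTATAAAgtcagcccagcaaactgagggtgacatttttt
Cd9 held GGGCGG, the GC box that Sp1 family proteins bind, at 2 places starting 81 and 60 bases before the gene's start, and 35.7% of 32851 RefSeq windows of this length hold it. Dpt held TATAAA starting 12 bases past its annotated start, and 13.6% of windows hold this word. Cd34 held none of the 5 words. The unprinted windows held TATAAA and GGAATG in Dpp4 and CCAAT in Pi16, words found in 13.6%, 14.7% and 37.4% of windows, and TGANTCA, found in 7.81%, was in none of the 5. The matches are a description of these letters, and the factors that bind them were not measured.

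Clec3b, the plasminogen-binding tetranectin, was at 7.93, 9.74 and 4.19 CPM in uninjured libraries, at 11.9 and 11.1 CPM at day 3 and at 51.2, 70.1 and 24.7 CPM at day 7. Every day 7 library was above every other library, and the day 3 libraries lay close together, just above the uninjured range. Clec3b averaged 48.6 ± 22.8 CPM at day 7 and 7.28 ± 2.83 CPM in uninjured skin (SD, n = 3 each), a log2 fold change of 2.72 ± 0.41 (SE, edgeR adjusted p = 0.00600, 95% interval of the fold 3.53 to 12.3). Clec3b was still called when any 1 uninjured or day 7 library was left out (highest edgeR adjusted p = 0.0317). In the table Clec3b (ENSMUSG00000025784.6) has 3 exon rows and spans chromosome 9 from 122980011 to 122986497. Its only family member in the lists, Clec3a, had no count in any library.

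Cd9, the tetraspanin, was at 33.4, 32.6 and 24.8 CPM in uninjured libraries, at 123 and 55.0 CPM at day 3 and at 255, 234 and 106 CPM at day 7. Uninjured libraries lay in a narrow band, and both day 3 libraries were above it. The mean was 198 ± 80.5 CPM at day 7 and 30.3 ± 4.75 CPM in uninjured skin (SD, n = 3 each), with a log2 fold change of 2.71 ± 0.39 (edgeR adjusted p = 0.00480, 95% interval of the fold 3.62 to 11.8). With any 1 uninjured or day 7 library left out, the highest edgeR adjusted p was 0.0274. Luminal epithelium markers were higher in the same day 7 libraries. Of 11 luminal epithelium markers 10 rose at day 7 and 0 fell, 1 of the 11 (Csn3) had no count in uninjured libraries, and their sum was 758 to 1591 CPM at day 7, against 51.8 to 80.3 CPM in uninjured libraries. In day 3 replicates 1 and 2, Cd9 and the luminal sum were both higher in replicate 1. Day 3 replicate 2 had a luminal sum of 51.5 CPM, just below the uninjured range, while its Cd9 level of 55.0 CPM was above all 3 uninjured libraries. Of 13 keratinocyte and hair follicle markers 2 rose and 0 fell at day 7, and their sums overlapped, at 2073 to 7184 CPM at day 7 and 1933 to 3579 CPM in uninjured libraries. At day 3 their sum was lower in replicate 1 (1517 CPM) than in replicate 2 (6010 CPM). The part of luminal or other epithelial RNA in the day 7 rise was not tested. Cd9 (ENSMUSG00000030342.9) spans chromosome 6 from 125437229 to 125471754.

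Cd24a, the mucin-like protein whose loss accompanies adipocyte commitment in mouse fat, was at 16.2, 30.6 and 9.24 CPM in uninjured libraries, at 55.7 and 16.9 CPM at day 3 and at 53.0, 123 and 64.6 CPM at day 7. Day 3 replicate 1 lay within the day 7 range and replicate 2 within the uninjured range. Means were 80.3 ± 37.7 CPM at day 7 and 18.7 ± 10.9 CPM in uninjured skin (SD, n = 3 each), and the log2 fold change was 2.09 ± 0.52 (edgeR adjusted p = 0.0364). The day 3 split had the direction of the luminal epithelium sum (1738 and 51.5 CPM) and not that of the keratinocyte and hair follicle sum (1517 and 6010 CPM). B cells and neutrophils also carry Cd24a. The 6 B cell markers summed to 3.23 to 5.6 CPM at day 7 and 2.20 to 5.08 CPM in uninjured libraries, and the 9 neutrophil markers to 57.3 to 108.6 CPM at day 7 and 36.7 to 111.7 CPM in uninjured libraries. Of 7 tested neutrophil markers 2 rose and 0 fell, with a median log2 fold change of 1.67, and DESeq2 called 3 higher, whereas of 2 tested B cell markers edgeR and DESeq2 called 0, with 0 at an unadjusted p under 0.05. The part of any of these cells was not tested.

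Thy1, the anchored immunoglobulin-fold protein of fibroblasts and T cells, was at 5.00, 11.5 and 3.03 CPM in uninjured libraries, at 6.37 and 18.6 CPM at day 3 and at 35.5, 34.2 and 12.8 CPM at day 7. Replicate 3 of day 7 lay just above uninjured replicate 2. The day 7 mean was 27.5 ± 12.8 CPM and the uninjured mean 6.52 ± 4.44 CPM (SD, n = 3 each), a log2 fold change of 2.04 ± 0.56 whose edgeR adjusted p of 0.0499 lay at the threshold. The 10 T cell markers summed to 13.2 to 16.4 CPM at day 7, 6.99 to 11.5 CPM at day 3 and 5.78 to 10.04 CPM in uninjured libraries. Of 7 of them that could be tested, edgeR and DESeq2 each called 0 in either direction at day 7, with 1 higher at an unadjusted p under 0.05. The estimates of all 7 were positive, with a median log2 fold change of 1.16. The part of T cell RNA in the rise of Thy1 was not tested.

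Cd34, the sialomucin of progenitors and endothelium, was at 14.8, 29.3 and 10.8 CPM in uninjured libraries, at 13.6 and 29.9 CPM at day 3 and at 52.5, 91.3 and 34.0 CPM at day 7. The day 3 values fell within or next to the uninjured range and below all day 7 values. The mean was 59.3 ± 29.2 CPM at day 7 and 18.3 ± 9.72 CPM in uninjured skin (SD, n = 3 each), with a log2 fold change of 1.68 ± 0.46 (edgeR adjusted p = 0.0479). Endothelial markers rose in the same comparison, 10 of 14 with 0 falling, and their sum was 163 to 643 CPM at day 7, 292 to 380 CPM at day 3 and 107 to 208 CPM in uninjured libraries. In day 3 replicate 1 the endothelial sum (292 CPM) was above all uninjured libraries while Cd34 (13.6 CPM) was within their range, and in replicate 2 both were above all uninjured libraries, Cd34 narrowly. At day 7 the endothelial sum of replicate 3 (163 CPM) was within the uninjured range while its Cd34 level (34.0 CPM) was above it. The part of endothelial RNA in the rise of Cd34 was not tested. Among the related sialomucins, Podxl, also of endothelium, rose 5.85-fold (edgeR adjusted p = 0.0194), and Podxl2 was at 6.92 ± 1.15 CPM at day 7 and 12.8 ± 4.20 CPM in uninjured skin without passing.

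The calls of Cd24a, Thy1 and Cd34 depended on single libraries. Each was lost without uninjured replicate 1, uninjured replicate 3, day 7 replicate 1 or day 7 replicate 2, which left 2 markers called (Cd9 and Clec3b), with highest edgeR adjusted p values of 0.138, 0.170 and 0.184. All 5 were called without uninjured replicate 2, without day 7 replicate 3, and without day 3 replicate 1 and day 7 replicate 3 together.

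**Figure D2:**
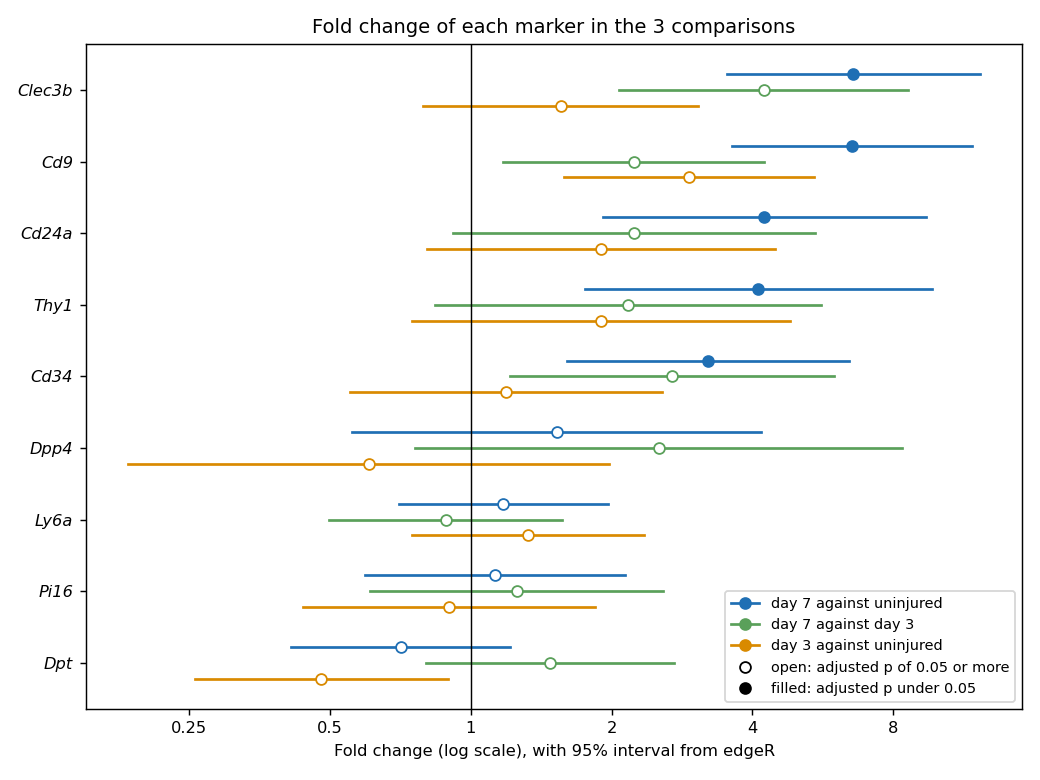
Fold change (horizontal axis, log scale) of each marker in the 3 comparisons, with 95% intervals from edgeR; filled points have an adjusted p under 0.05. The 5 filled points are all of day 7 against uninjured skin, from 3.21-fold for Cd34 to 6.58-fold for Clec3b.

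Ly6a, the Sca-1 antigen, was at 88.8, 204 and 235 CPM in uninjured libraries, at 190 and 276 CPM at day 3 and at 167, 240 and 213 CPM at day 7. All 3 groups overlapped, and uninjured replicate 1 was the lowest of the 8 libraries. The day 7 fold was 1.17 with a 95% interval of 0.701 to 1.96. Of its relatives, Ly6c1 and Ly6e did not pass either. Ly6c1 was at 94.6 ± 12.3 CPM at day 7 and 98.2 ± 39.5 CPM in uninjured skin, and Ly6e at 543 ± 123 CPM at day 7 and 470.1 ± 100.7 CPM in uninjured skin (SD, n = 3 each). Of 11 tested Ly6 genes, Ly6a included, Ly6d, of keratinocytes, rose 2.66-fold (edgeR adjusted p = 0.0353) and the other 10 did not pass. No source used here says how reads matching several of these close copies were assigned, so values of single Ly6 genes are uncertain.

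Dpp4, the membrane peptidase of interstitial progenitors, was the scarcest of the 9. It was at 3.66, 8.45 and 2.89 CPM in uninjured libraries, at 0.823 and 5.02 CPM at day 3 and at 11.5, 8.86 and 2.87 CPM at day 7. Day 3 replicate 1 rested on 4 counts, and the groups overlapped. The 95% interval of the day 7 fold, 0.559 to 4.17, holds a rise of the size of Cd34's (3.21-fold) and also a fall, though a smaller change than that rise. Of the 7 tested genes of its peptidase family, itself and Fap included, edgeR and DESeq2 called 0, with 1 higher at an unadjusted p under 0.05.

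Pi16, the other marker of interstitial progenitors, was at 41.5, 30.6 and 23.4 CPM in uninjured libraries, at 12.7 and 43.8 CPM at day 3 and at 36.5, 48.3 and 22.8 CPM at day 7. The lowest and highest values over uninjured and day 7 libraries were both of day 7. The day 7 fold was 1.13 with a 95% interval of 0.595 to 2.13, which does not reach the estimate for Clec3b. Of 7 tested CAP family genes, Glipr2 rose 2.99-fold (edgeR adjusted p = 0.0340) and Glipr1 rose to 2.19 ± 1.25 CPM at day 7, against 0.178 ± 0.155 CPM in uninjured skin (SD, n = 3 each).

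Dpt, the decorin-binding matrix protein, was at 662, 845 and 396 CPM in uninjured libraries, at 212 and 396 CPM at day 3 and at 356, 612 and 380 CPM at day 7. Both day 3 libraries were below the lowest uninjured library, replicate 2 by a narrow margin, and the day 7 libraries overlapped the uninjured ones. Its fold was 0.708 at day 7 (95% interval 0.413 to 1.21) and 0.480 at day 3 (0.257 to 0.893), with edgeR adjusted p values of 0.380 and 0.319. Dpt (ENSMUSG00000026574.6) spans chromosome 1 from 164624213 to 164651835.

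At day 3 against uninjured skin edgeR called 0 of the 9 markers in either direction, where 0.0107% of all tested genes rose and 0 fell. At an unadjusted p under 0.05, Cd9 was higher and Dpt lower, against 7.57% and 5.39% of all tested genes, and DESeq2 called 1 marker, Cd9, higher (log2 1.57, adjusted p = 0.0171). Cd9 was 2.93-fold higher in edgeR (95% interval 1.58 to 5.42, adjusted p = 0.190). Intervals of the other fold changes were wide, from 0.185 to 1.97 for Dpp4 and from 0.750 to 4.81 for Thy1, and that of Thy1 holds its day 7 estimate. In 2 of the 9 both day 3 libraries lay above the uninjured range and in 1 below it, against 16.9% and 17.2% of all tested genes.

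The day 3 libraries split the markers into groups, though any gene that differs between 2 libraries falls into such a group. Cd9 and Cd24a were higher in replicate 1, with 123 and 55.7 CPM, than in replicate 2, with 55.0 and 16.9 CPM. Cd34, Dpp4, Pi16, Dpt, Thy1 and Ly6a were lower in replicate 1, and the widest gap was that of Dpp4 (0.823 and 5.02 CPM). Clec3b was at nearly the same level in both. The sum of pan-fibroblast genes had the direction of the second group, at 2136 and 5711 CPM in replicates 1 and 2, and the luminal epithelium sum that of the first. Keratinocyte and hair follicle (1517 and 6010 CPM), macrophage and monocyte (317 and 1214 CPM) and endothelial (292 and 380 CPM) sums also went with the second group. Adipocyte (104186 and 76854 CPM) and neutrophil (171 and 103 CPM) sums went with the first. Without replicate 1, the day 3 estimate of Cd24a was -0.17 and that of Pi16 0.46 on the log2 scale, opposite in sign to those with both libraries. The part of any of these cell types in the split was not tested.

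**Figure D3:**
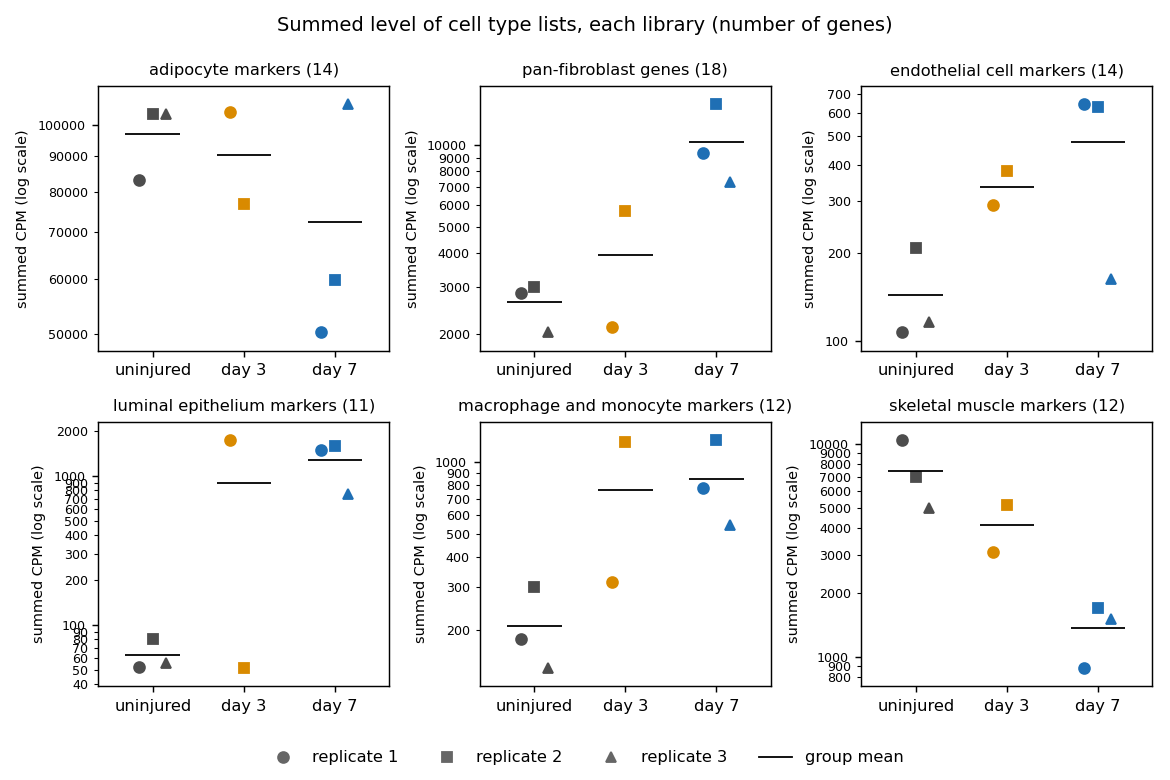
Summed TMM-normalised CPM (vertical axes, log scale) of 6 cell type lists in each library by group, with replicates as symbols and the group mean as a line. Luminal epithelium markers are at 1738 CPM in day 3 replicate 1 and 51.5 CPM in replicate 2, and endothelial markers in day 7 replicate 3 (163 CPM) lie within the uninjured range.

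At day 7 against day 3 edgeR called 0 of the 9 markers, with 0.0643% of all tested genes rising and 0.0214% falling. Clec3b, Cd9 and Cd34 had an unadjusted p under 0.05, all higher at day 7, where 6.37% of all tested genes were higher and 4.64% lower, and DESeq2 called 1 marker, Clec3b, higher (adjusted p = 0.00187). Clec3b was 4.23-fold higher at day 7 (95% interval 2.08 to 8.6, edgeR adjusted p = 0.191). Cd34 was 2.7-fold higher (1.22 to 5.99, edgeR adjusted p = 0.400), and in these 2 genes every day 7 library was above both day 3 libraries, as in 14.2% of all tested genes. Cd9 was 2.23-fold higher (1.17 to 4.24) with overlapping libraries. This comparison shares its day 7 libraries with that against uninjured skin.

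Levels of different genes were compared only per kilobase of exon (RPKM, from the lengths in the count table). Dpt had the highest level in uninjured skin at 368 RPKM (lowest and highest library 230 and 490), followed by Ly6a at 146 RPKM (73.7 to 195) and Cd9 at 14.8 RPKM (12.2 to 16.4), none of whose ranges touched. Below them the ranges of neighbours overlapped from Clec3b (7.34 RPKM) through Cd24a, Pi16, Cd34 and Thy1 to Dpp4 (0.791 RPKM). At day 7 Dpt and Ly6a were again highest, at 261 RPKM (207 to 355) and 171 RPKM (138 to 199), followed by Cd9 at 97.0 RPKM. Clec3b reached 49.0 RPKM and Cd24a 31.1 RPKM at day 7, and Thy1 and Cd34, at 9.19 and 8.13 RPKM, had higher means than Pi16 at 5.63 RPKM, though their ranges overlapped in order. Dpp4 was lowest at 1.23 RPKM, with a highest library of 1.83 RPKM. At day 3 Ly6a had a mean of 194 RPKM and Dpt of 176 RPKM, with overlapping ranges.

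Set against the pan-fibroblast genes of the same library, the markers differed in whether they kept pace. The rise of that list was broad: 11 of its 18 genes rose and 0 fell at day 7, with a median log2 fold change of 1.93, with the smallest p for the type I collagen chains Col1a1 and Col1a2 (16.9-fold and 13.5-fold). Per 100 CPM of the list, Dpt stood at 3.81 to 5.18 at day 7 and 19.5 to 28.1 in uninjured skin, and Pi16 at 0.310 to 0.390 at day 7 and 1.02 to 1.45 in uninjured skin. Ly6a and Dpp4 were likewise lower in every day 7 library, which made 4 of 9, but 73.0% of all tested genes were lower by this measure. Cd9 (1.45 to 2.73 at day 7, 1.09 to 1.22 in uninjured skin) and Clec3b (0.336 to 0.548 at day 7, 0.206 to 0.324 in uninjured skin) were higher in every day 7 library, as were 2.14% of all tested genes. For Cd34, Cd24a and Thy1 the groups overlapped.

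The 3 fibrillar collagen genes Col1a1, Col1a2 and Col3a1 weigh heavily in that sum. With these left out, a choice made after seeing the data, 5 markers (Cd34, Cd9, Cd24a, Clec3b and Thy1) were higher per 100 CPM of the list in every day 7 library, as were 6.86% of all tested genes. Dpt alone of the 9 was lower in every day 7 library, at 17.2 to 19.7 against 36.5 to 46.9 in uninjured skin, as were 23.9% of all tested genes. Pi16 then overlapped, at 1.18 to 1.75 at day 7 and 1.62 to 2.77 in uninjured skin.

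**Figure D4:**
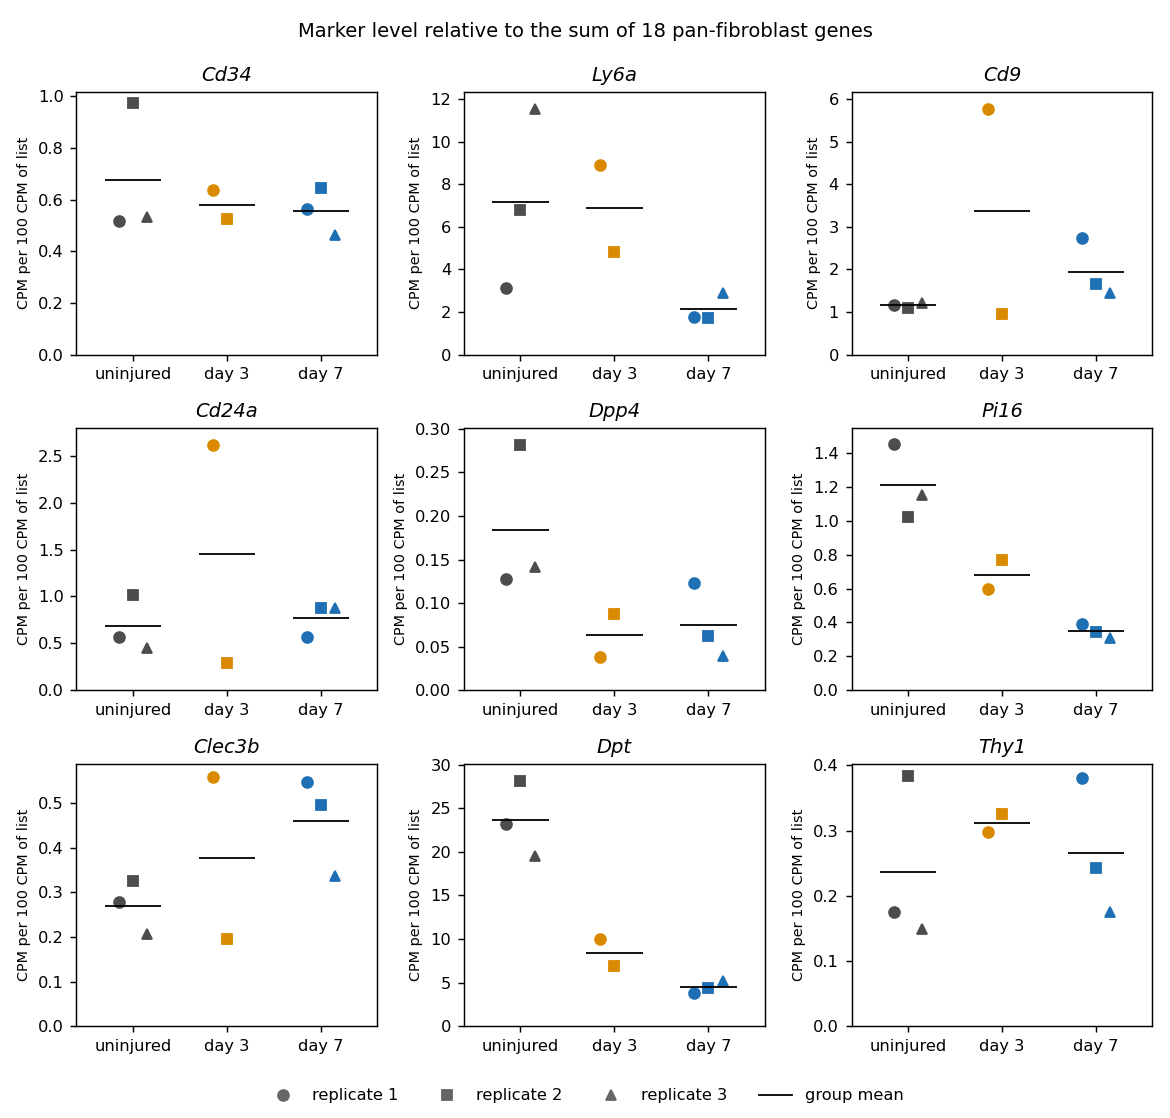
Level of each marker per 100 CPM of the summed 18 pan-fibroblast genes of the same library (vertical axes, linear from 0), by group, with replicates as symbols and the group mean as a line. Dpt lies at 3.81 to 5.18 in day 7 libraries and 19.5 to 28.1 in uninjured ones, whereas Clec3b and Cd9 are higher in every day 7 library than in any uninjured one. By this measure 73.0% of all tested genes were lower in every day 7 library and 2.14% higher.

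By number of genes, others of interstitial progenitors and fascia moved mainly upward. Of 32 tested, 10 rose and 1 fell at day 7, and their median log2 fold change was 1.01. Those with the smallest p were Fndc1, a fibronectin-domain protein (35.8 ± 17.4 CPM at day 7, 2.99 ± 1.08 CPM in uninjured skin), the fibril-associated collagen Col14a1 (39.3 ± 17.2 CPM at day 7, 4.67 ± 1.96 CPM in uninjured skin), the microfibril protein Mfap5 (113 ± 49.5 CPM at day 7, 8.75 ± 5.63 CPM in uninjured skin) and Igfbp6 (4.72-fold, edgeR adjusted p = 0.00748). Both day 3 libraries were below every day 7 library for all 4 of these genes. Also called higher were Cd248 (6.34-fold), Tnxb, Fbn1, Il33 (3.56-fold), Anxa3 (4.45-fold) and Procr. The gene that fell was Gpx3, a secreted glutathione peroxidase that adipocytes also make, by 1.89 on the log2 scale (5553 ± 2272 CPM at day 7, 20529 ± 6018 CPM in uninjured skin). Gpx3 weighs heavily in the list's sum, which was lower, at 4733 to 8968 CPM at day 7 and 14212 to 24752 CPM in uninjured libraries. The other 21 did not pass, among them Pcolce2, Ly6c1 and Cd55 (edgeR adjusted p = 0.984, 0.936 and 0.894).

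Some genes of committed preadipocytes and of dermal lineages rose as well. Of 16 preadipocyte genes, 3 rose and 0 fell at day 7 with a median log2 fold change of 1.05, and for falls 1 had an unadjusted p under 0.05 and DESeq2 called 0. They were Dlk1, which restrains adipocyte differentiation (4.56 ± 1.82 CPM at day 7, 0.122 ± 0.123 CPM in uninjured skin), the matrix Gla protein Mgp (5.33-fold, edgeR adjusted p = 0.0244) and the adhesion molecule Icam1 (4.55-fold, edgeR adjusted p = 0.0337). Dlk1 was highest in day 7 replicate 3, unlike the 9 markers, and its uninjured mean was below the 0.328 CPM that 3 counts per library are worth on average. The sums of the 16 preadipocyte genes overlapped, at 1204 to 1710 CPM at day 7 and 1652 to 1745 CPM in uninjured libraries. Of 7 tested genes of the papillary dermis and dermal papilla, the retinoid-binding Crabp1 rose (40.3 ± 15.8 CPM at day 7, 5.00 ± 4.62 CPM in uninjured skin) and the others did not pass. Of 21 tetraspanins, Cd9 and Tspan1 rose and Tspan4 fell by 1.35 on the log2 scale (edgeR adjusted p = 0.0339). Tspan1 averaged 4.63 CPM at day 7 and had no count in uninjured skin, which with a floor of 3 counts per library makes it at least 14.1-fold higher. The median of the tetraspanins was 0.05.

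**Figure D5:**
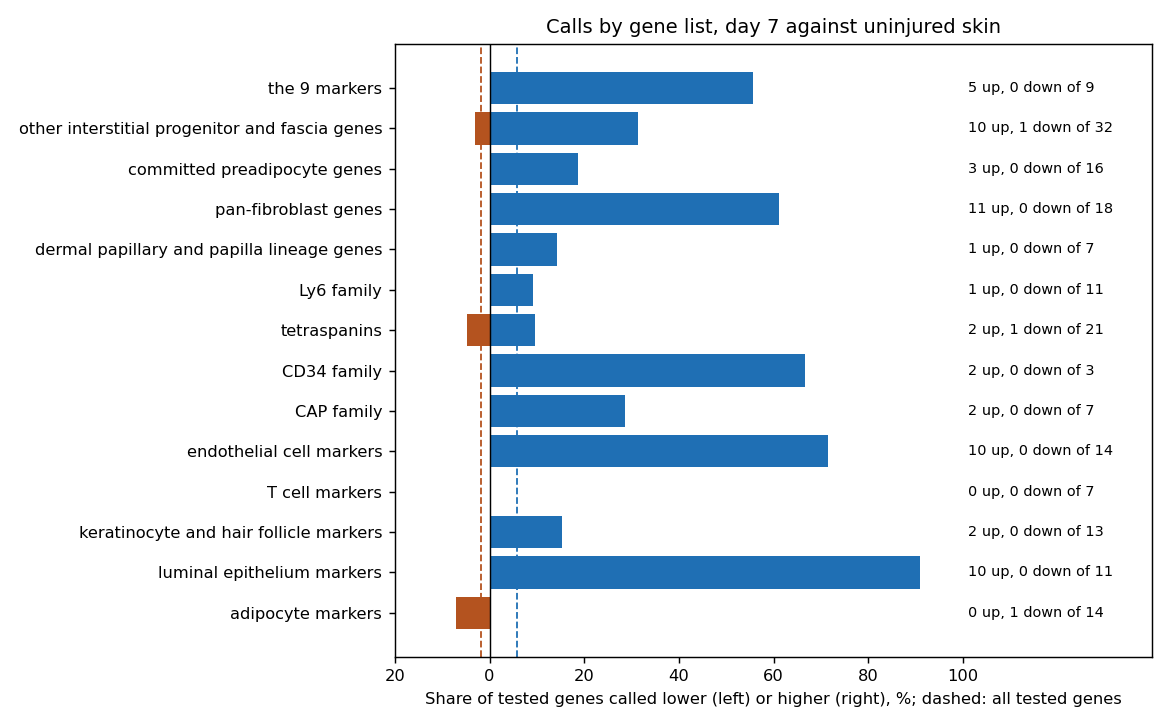
Share of tested genes called higher (right of 0) or lower (left of 0) at day 7 against uninjured skin in each list, in percent, with the shares of all tested genes (5.90% and 1.77%) as dashed lines. The 9 markers (5 of 9 called higher) lie beside the pan-fibroblast genes (11 of 18), below luminal epithelium markers (10 of 11) and above the tetraspanins (2 of 21).

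The genes whose levels followed each marker most closely over the 8 libraries are given as a description, by Pearson's r of log2 CPM among 6986 genes or more that reached 20 CPM in a group. The 8 libraries fall into 3 groups and the genes named are the closest of all those compared, so high values alone mean little. Clec3b was followed most closely by Atp8b2, Ephb3 and Krit1 (0.989, 0.977 and 0.976), Cd9 by F11r, Bex3 and Cd200 (0.988, 0.984 and 0.983) and Cd24a by Pip4k2c, Igfbp5 and Tgfb1i1 (0.969, 0.966 and 0.953). Thy1 was followed by Ms4a7, Nfat5 and Cygb (0.989, 0.981 and 0.979), Cd34 by Glipr2, Msn and Ckap4 (0.973, 0.971 and 0.971) and Dpt by Vsir, Fermt2 and Rab31 (0.953, 0.948 and 0.946). For Pi16 they were Pdlim1, Cyth3 and Man1c1 (0.972, 0.958 and 0.954) and for Dpp4 Mettl1, Tulp4 and Med13 (0.975, 0.954 and 0.949). Ly6a had the lowest values, with Rogdi, Rpl10 and Azin2 (0.886, 0.866 and 0.860). No marker was among the 3 genes closest to another, though Dpp4, under 20 CPM in every group, could not have been.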

How the data were processed

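The authors deposited whole-number read counts per gene, not normalised, with a column for each library. The file headers name featureCounts 2.0.8, and the submitters' processing notes list STAR 2.7.10b, DESeq2 and mm10. Strand and multiple matches are not stated there. Symbols were matched for 52093 of 53700 identifiers. Gene starts equal those of the GRCm38 (mm10) annotation for only 1491 of 52093 genes and 0 of the 9 markers. Gene coordinates are those of the table, which do not match the mm10 of the notes, and their build is not settled. Promoter windows are of GRCm38.p6, so windows and gene spans cannot be set against each other.

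After TMM normalisation, genes were tested by edgeR 4.0.16 (run in R 4.3.3) following its expression filter at a minimum count of 10. The 8 libraries entered a single model with a mean for each group, which left 5 residual degrees of freedom. The p-values were adjusted by Benjamini-Hochberg with a threshold of 0.05. Fold intervals are at 95%. The procedure was tested on simulated data. At totals of 5308959 to 17751689 counts, 3 counts are worth 0.184 to 0.617 CPM, for counting error only. Alternatives were edgeR with either upper-quartile scaling or the size factors of DESeq2, the DESeq2 1.42.0 test itself, no filter, a minimum count of 50, fits of 2 groups, the replicate number as a block, and libraries left out. The markers, lists and rules were chosen with earlier results of these data known. All 9 markers are named, with family relatives and, of other lists, up to 4 genes with the smallest adjusted p at day 7 and every called gene where at most 5 were called. Gpx3, Csn3, Pcolce2, Cd55, Ly6c1 and the called progenitor genes beyond the first 4 were named after their values were seen.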

Additional observations from a re-analysis of the deposited data

How the results depend on the processing

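At day 7 against uninjured skin 5 markers rose, and leaving out 1 library of the groups compared gave 2 to 5. Cd9 and Clec3b were called under all 14 alternatives. Thy1 missed the threshold with a minimum count of 50 (edgeR adjusted p = 0.0501). Over all genes, 1101 rose and 330 fell, with 1871 and 647 by DESeq2, 2362 and 794 without the filter, 2913 and 1621 without day 3 replicate 1 and day 7 replicate 3 together, and 238 to 2616 and 76 to 1439 with 1 library left out. At day 3 against uninjured skin 0 markers were called, but 1 (Cd9) by DESeq2 and 1 without the filter. All-gene counts, 2 higher and 0 lower, were 330 and 102 by DESeq2, 696 and 230 without the filter, 170 and 1 without those 2 libraries, and 0 to 129 and 0 to 21 with 1 library left out. With a minimum count of 50, or only 2 groups, 0 genes rose. At day 7 against day 3 0 markers were called, but 1 by DESeq2, 4 without the filter and 1 without the 2 libraries. All-gene counts, 12 higher and 4 lower, were 147 and 86 by DESeq2, 369 and 203 without the filter, 38 and 20 without the 2 libraries, and 4 to 23 and 0 to 12 with 1 library left out. With DESeq2 size factors 8 fell, with only 2 groups 1 fell, and with upper-quartile scaling 15 rose and 11 fell. The cause of these shifts was not tested.

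The replicate number as a block gave 568 falling genes at day 7 against uninjured skin, 5 rising and 2 falling at day 3, and 95 rising and 31 falling at day 7 against day 3, where it called 2 markers, Cd34 and Clec3b. It turned the log2 estimate of Cd34 at day 3 to -0.050. Same-numbered libraries of day 7 and uninjured skin had correlations of deviations from group means of -0.06, 0.06 and 0.20. Not every library correlated best with its own number. Deviations within so small a group depend on each other, so these values cannot show whether the libraries were paired.

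Uncalled log2 estimates changed sign in places. With 1 library left out they ranged, at day 7 against uninjured skin, from -0.10 to 0.49 for Ly6a and -0.083 to 0.41 for Pi16. At day 3 they ranged from -0.46 to 0.78 for Cd34, -0.17 to 1.54 for Cd24a, -1.34 to 0.46 for Pi16 and -0.089 to 1.65 for Thy1. At day 7 against day 3 they ranged from -0.30 to 1.5 for Pi16 and -0.43 to 0.13 for Ly6a. Without the 2 libraries together, Cd24a was -0.17 and Pi16 0.46 at day 3, and Pi16 -0.062 at day 7 against day 3.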
